A study of Mus musculus with 31 samples.

Results

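The loci of the 4 genes Dnmt1, Dnmt3a, Dnmt3b and Dnmt3l were followed through mouse oocyte growth by their own DNA methylation. Members were all listed CpG sites inside a window around each gene in the mm9 build: chr9:20710000-20766000 for Dnmt1, chr12:3800000-3915000 for Dnmt3a, chr2:153470000-153515000 for Dnmt3b and chr10:77500000-77530000 for Dnmt3l. The windows held 375 of the 1419929 sites listed in the series, and 295 of them had at least 5 reads in a library. Summed into fixed 100-bp tiles, they gave 104 of 429024 tiles, of which 40 held at least 3 such sites: 9 in Dnmt1, 18 in Dnmt3a, 7 in Dnmt3b and 6 in Dnmt3l. The level of a tile is its methylated reads as a percentage of all reads over its sites of at least 5 reads. Methylation was read by reduced representation bisulfite sequencing: MspI cuts at CCGG, so mostly CpG-rich sequence is covered. The 31 libraries came from oocytes of B6D2F1 (C57BL/6 x DBA/2) mice, untreated as far as the labels say; no age and no number of oocytes per library is given in the sources used here. Primordial follicles gave Type1 and Type2, primary follicles Type3a and Type3b, secondary follicles Type4, Type5a and Type5b, and antral follicles Type6 and Type7. There were 5 libraries each of Type4 and Type5a and 3 of each other stage. A label that names an embryo stage contradicts the titles and was not used.

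Dnmt1 is the maintenance methyltransferase, which copies methylation onto the new DNA strand after replication. Dnmt3a and Dnmt3b are the de novo enzymes, which methylate unmethylated DNA, and Dnmt3l is a cofactor without catalytic activity that binds and stimulates them. In growing mouse oocytes, methylation is laid down after birth by Dnmt3a together with Dnmt3l. As background, oocytes are known to start Dnmt1 transcription at an oocyte-specific first exon upstream of the somatic one, and the short form of Dnmt3a starts inside the gene.

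Library depth ran from 7949652 to 60361665 reads over sites, and 555 to 7513 of those reads fell on members. Most tiles were therefore not measured in every library, and a value from 1 or 2 libraries is named as such. An X measure was taken for each library as the mean level of 63 CpG-dense X tiles minus that of 2902 CpG-dense autosomal tiles. Somatic cells of females carry methylated CpG islands on their inactive X. The measure lay above 0 in 9 libraries, which were replicates 1 and 2 of Type6, 5 and 7 of Type5a, 1, 2 and 5 of Type4, 1 of Type3a and 3 of Type1. The part of DNA from other cells in any result was not tested. No label ties libraries to animals, so p-values reflect the spread among libraries alone, and that spread may be technical.

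No mm9 annotation was used here, so gene starts were placed by sequence. Each RefSeq promoter (GRCm38.p6, 250 bases before to 50 after a start) was laid over the listed sites of its chromosome. A position matched if all listed sites fell on CpGs of the sequence and their neighbouring bases fitted it too. For genes outside these loci and the methylation machinery, only sites near the GRCm38 position were searched. RefSeq lists 3 starts for Dnmt1, and the most 3′ of them matched with 16 listed sites on its 33 CpGs (the next best position matched 2), at mm9 chr9:20757018-20757317 on the minus strand with the start at 20757067. The other starts lie 356 and 7265 bp upstream of it in GRCm38 and were not placed. The first start of Dnmt3a with a match (8 listed sites) lay at mm9 chr12:3806910-3807209 on the plus strand. A looser rule, added after the data were seen, asked for at least 5 listed sites and a position inside the window of the gene itself. By it the single Dnmt3b start was placed at 153475185 (5 sites, plus strand) and the internal Dnmt3a start at 3891744 (6 sites, plus strand). Sequences of the 3 starts that the results turn on are given 5′ to 3′ from RefSeq GRCm38.p6, with the CpGs listed in the files in capitals.
Dnmt1, mm9 chr9:20757018-20757317, minus strand: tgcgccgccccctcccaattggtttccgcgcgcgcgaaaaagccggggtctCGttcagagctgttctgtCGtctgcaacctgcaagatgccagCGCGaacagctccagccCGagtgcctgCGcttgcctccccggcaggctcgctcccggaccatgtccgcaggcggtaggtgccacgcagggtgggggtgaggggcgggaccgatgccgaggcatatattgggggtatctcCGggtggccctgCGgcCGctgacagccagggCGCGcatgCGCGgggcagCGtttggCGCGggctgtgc
Dnmt3b, mm9 chr2:153474935-153475234, plus strand: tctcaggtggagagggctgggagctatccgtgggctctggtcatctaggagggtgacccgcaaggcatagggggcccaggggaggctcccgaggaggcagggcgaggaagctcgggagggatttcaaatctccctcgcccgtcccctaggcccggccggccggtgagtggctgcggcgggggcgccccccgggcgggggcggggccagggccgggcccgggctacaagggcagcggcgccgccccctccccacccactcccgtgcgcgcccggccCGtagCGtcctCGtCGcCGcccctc
Dnmt3a internal start, mm9 chr12:3891494-3891793, plus strand: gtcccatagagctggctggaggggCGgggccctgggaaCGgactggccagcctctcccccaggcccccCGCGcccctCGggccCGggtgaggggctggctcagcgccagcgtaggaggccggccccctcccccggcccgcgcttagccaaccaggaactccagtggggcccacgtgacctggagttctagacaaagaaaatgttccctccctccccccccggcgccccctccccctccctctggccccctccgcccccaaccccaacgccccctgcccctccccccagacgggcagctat
In Dnmt1, 10 of the 16 capital CpGs had at least 5 reads in a library, all of them at the 3′ end of the printed stretch, around the start. The Dnmt3b sequence is CpG-rich too (30 CpGs), but none of its 5 listed sites reached 5 reads, and its values come from the stretch just downstream. The MspI motif CCGG, which is its own reverse complement, occurs 4 times in the Dnmt1 sequence, 7 times in that of Dnmt3b and 4 times in that of the internal Dnmt3a start. It is absent from all 3 RefSeq promoters of Dnmt3l, which hold 3 to 6 CpGs; 52.8% of the 32851 promoters in the table contain it. No start of Dnmt3l could be placed, and its tiles are given by coordinate.

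Most tiles of the 4 loci had low levels in primordial follicles and high levels in Type7. Among member tiles measured in at least 2 libraries of the stage, 26 of 30 had a mean level below 20% in Type1 and 37 of 38 in Type2. Of the genome's tiles, 71.8 and 80.7% lay below 20% in these stages. In Type7, 23 of 28 lay at 80% or more, 5 lay below 20% and none lay between. Those 5 were 2 of 6 tiles in Dnmt1, 2 of 14 in Dnmt3a, 0 of 5 in Dnmt3b and 1 of 3 in Dnmt3l. Over all tiles of the genome counted the same way, 26.6% lay at 80% or more in Type7, 43.9% below 20% and 29.5% between. The share of member tiles at 80% or more rose late, with 2 of 45 in Type5a, 8 of 25 in Type5b and 15 of 33 in Type6. Over the genome it was 1.82, 12.6 and 24.0% in these stages, so high tiles became more frequent there too. The tiles measured differ between stages.

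**Figure D1:**
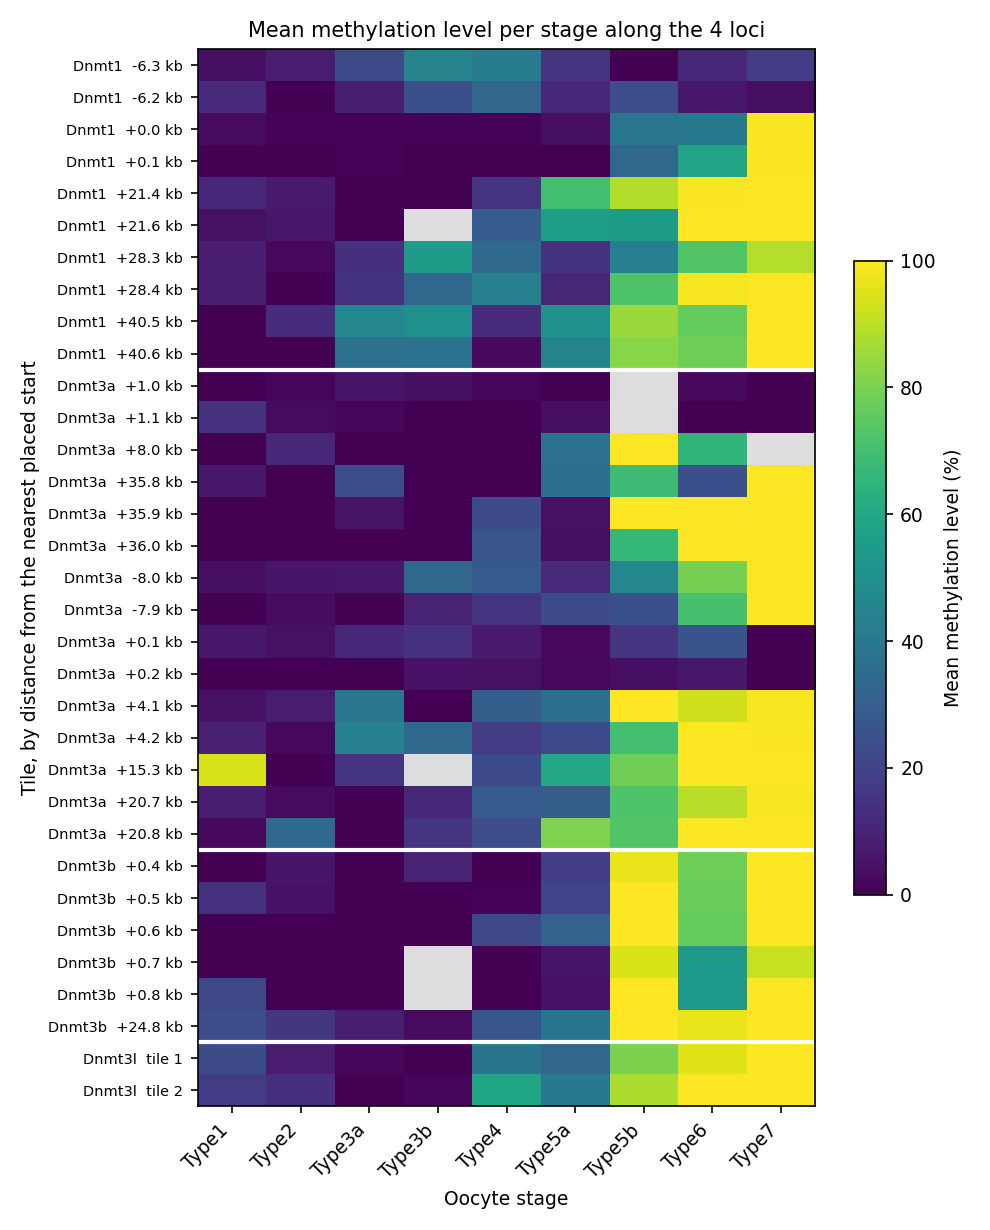
Mean methylation level (colour, 0 to 100%) of the 33 member tiles that were measured in at least 2 libraries of at least 5 stages, in rows from 5′ to 3′ of each gene, over the 9 stages in columns; labels give the distance of the tile centre from the nearest placed start in kb (in Dnmt3a the upper 6 rows refer to the first start and the others to the internal one), grey is not measured, and a cell can rest on 1 library. Most rows turn from dark to yellow between Type5a and Type7, while the rows 6.2 and 6.3 kb before the Dnmt1 start and those just after both Dnmt3a starts have means below 20% in Type7.

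Tests used tiles of at least 3 sites measured in at least 2 libraries of both groups, in one quasi-binomial model over the whole genome, and a call needed both a difference of 20 percentage points or more and an adjusted p under 0.05. From Type1 to Type7, 7 of 10 member tiles tested were called higher and none lower; over the genome 17.7% of tiles were called higher. The median difference was 81.2 points over the 10 tiles and 1.99 over all tiles tested. The 7 were 2 in Dnmt1, 1 in Dnmt3a, 3 in Dnmt3b and 1 in Dnmt3l. The count was 2 of 4 tiles tested without Type1 replicate 1, 3 of 4 without Type1 replicate 3, 3 of 5 without Type7 replicate 1, 3 of 7 without Type7 replicate 2, and 3 of 4 without the 9 libraries of X measure above 0. Between the 6 antral and the 6 primordial libraries, 10 of 16 tiles were called higher and none lower (24.8% of the genome's tiles called higher), and leaving out any 1 library gave 9 to 11.

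Dnmt1 gained methylation over its CpG-rich start, and its one call between neighbouring stages was the step from Type6 to Type7. In the tile over the placed start (chr9:20757001-20757100, 13 sites, centre 16 bp after the start), the Type1 libraries had 6.90, 0 and 1.53% and the Type2 libraries 0.0589, 0.805 and 2.28%. Primary follicle oocytes had 1.69, 0 and 0.767% in Type3a and 3.17, 0.330 and 0% in Type3b. The lowest, median and highest of 5 Type4 libraries were 0, 0 and 3.14%. All 17 libraries through Type4 thus lay below 7%.
Of the 4 Type5a libraries measured, replicate 1 had 17% (48 of 283 reads, 95% Wilson interval 13 to 21.8) and replicates 5, 6 and 7 had no methylated read, with 301, 1805 and 1249 reads that allow at most 0.997, 0.166 and 0.240%. The methylated reads of replicate 1 all fell on the CpGs at 20757007, 20757009 and 20757026. The 2 Type5b libraries measured had 9.29 and 69.1%, from 958 and 256 reads. Type6 had 17.5, 49 and 54.7%, and Type7 99.6, 99.9 and 98.6%. The Type7 libraries all lie above every other library, while those of Type5b and Type6 are spread widely and overlap each other. Reads are summed over the sites of a tile, so a read that spans several CpGs counts once for each, and reads carry no molecular identifiers. Intervals and upper limits take these counts as independent and cover counting error only, so for tiles of several sites they are too narrow.

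The tile was higher in Type7 than in Type1, at 99.4% ± 0.662 (SD, n = 3) against 2.81% ± 3.63 (n = 3), a difference of 96.5 points (quasi-binomial F test, adjusted p = 2.07e-05). Of 11 member tiles tested between Type6 and Type7 it was the one called, at 99.4% ± 0.662 (SD, n = 3) against 40.4% ± 20.1 (n = 3), a difference of 59 points (quasi-binomial F test, adjusted p = 0.0142); 1.00% of the genome's tiles were called higher in this step. That last call was lost without Type7 replicate 2 (adjusted p = 0.250), in a fit on the libraries of the 2 stages alone (0.286) and in limma (0.149), where the difference stayed at 58.7 to 59.0 points. Type6 replicates 1 and 2 had X measures of 1.04 and 1.31 points. Without them too few Type6 libraries remained, so the step was not tested. Just downstream, chr9:20756901-20757000 (1 or 2 sites, below the test's minimum) followed the same course: no library through Type5a exceeded 2.30%, Type5b had 100, 0 and 0%, Type6 32.4, 66.7 and 76.4% and Type7 100, 98.5 and 100%. The Type5b value of 100% rests on 12 reads (Wilson interval 75.8 to 100). Site by site, the median over CpGs measured in at least 2 libraries was 0% in Type1, 40% in Type5b, 45.2% in Type6 and 100% in Type7, with the lowest of 14 sites in Type7 at 94.4%.

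**Figure D2:**
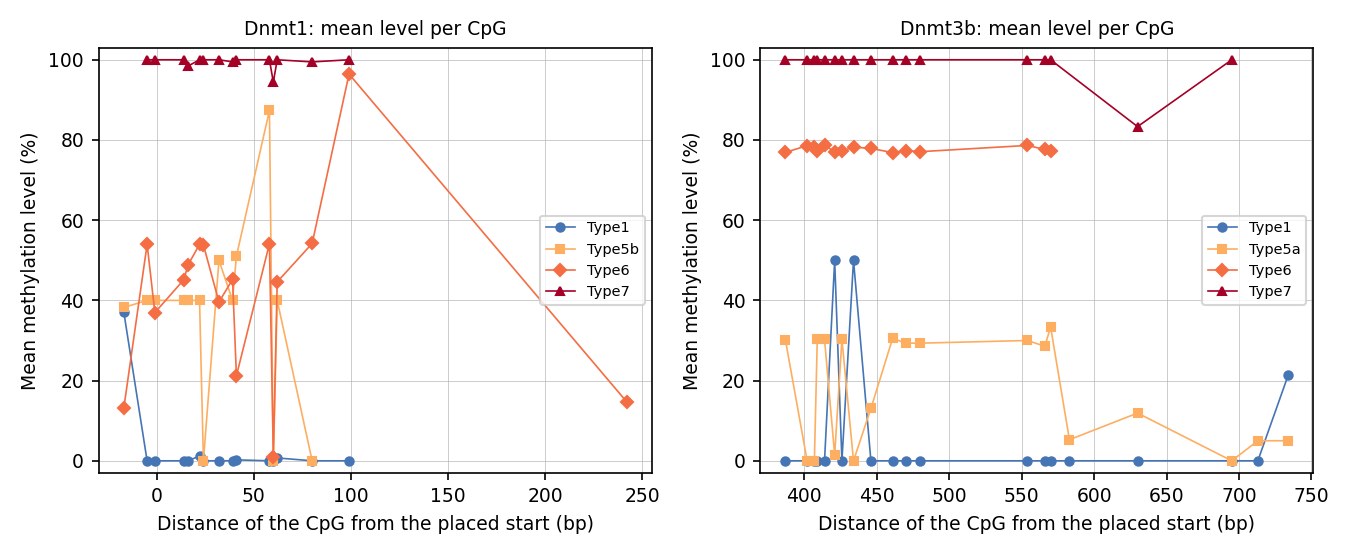
Mean methylation level (%) of single CpGs against their distance from the placed start (bp), for CpGs with at least 5 reads in at least 2 libraries of the stage, at Dnmt1 (left: Type1, Type5b, Type6, Type7) and Dnmt3b (right: Type1, Type5a, Type6, Type7). At Dnmt1 the Type7 sites lie between 94.4 and 100% and the Type6 sites between 0.971 and 96.4%; at Dnmt3b the 15 Type6 sites lie between 76.8 and 78.6%.

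Upstream of that start, tiles of Dnmt1 had lower levels than the start itself in Type7. The tile chr9:20763201-20763300, 6184 bp before the placed start, had 1.37, 0.465 and 0% in Type2, 14.4, 4.37 and 1.06% in Type6 and 0, 1.12 and 10.3% in Type7. In between it varied from library to library: 21.6, 51.2 and 0% in Type3b, 0 to 61% in Type4 with a median of 33.3%, and 43.5 and 3.41% in the 2 Type5b libraries measured. In Type5a, 4 libraries had 0% and replicate 7 had 56.3%. The difference between Type7 and Type1 did not pass the test (3.80% ± 5.65 against 12.4% ± 12.6, SD, n = 3 each, quasi-binomial F test, adjusted p = 0.401).
The neighbouring tile at 6284 bp before the start, with 1 site, had 0% in one of the 2 Type7 libraries measured (16 reads) and 36.4% in the other (8 of 22 reads).
Some high levels of the first of these tiles fell in libraries of high X measure. Type4 replicates 1, 2 and 5, at 32.7, 61 and 38.4%, had X measures of 6.75, 10.6 and 9.94 points, and Type5a replicate 7 had 3.23. Others did not: Type3b replicate 2 (51.2%) had an X measure of -0.994, Type4 replicate 4 (33.3%) one of -3.37 and Type5b replicate 1 (43.5%) one of -6.67. Low levels also occurred at X measures above 0: Type5a replicate 5 (0%) had 0.978, and Type6 replicates 1 and 2 (14.4 and 4.37%) had 1.04 and 1.31. The part of the X measure in these levels was not tested. In the tile over the start, Type4 replicates 1, 2 and 5 and Type5a replicate 7 had 3.14, 0, 2.17 and 0%.

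**Figure D3:**
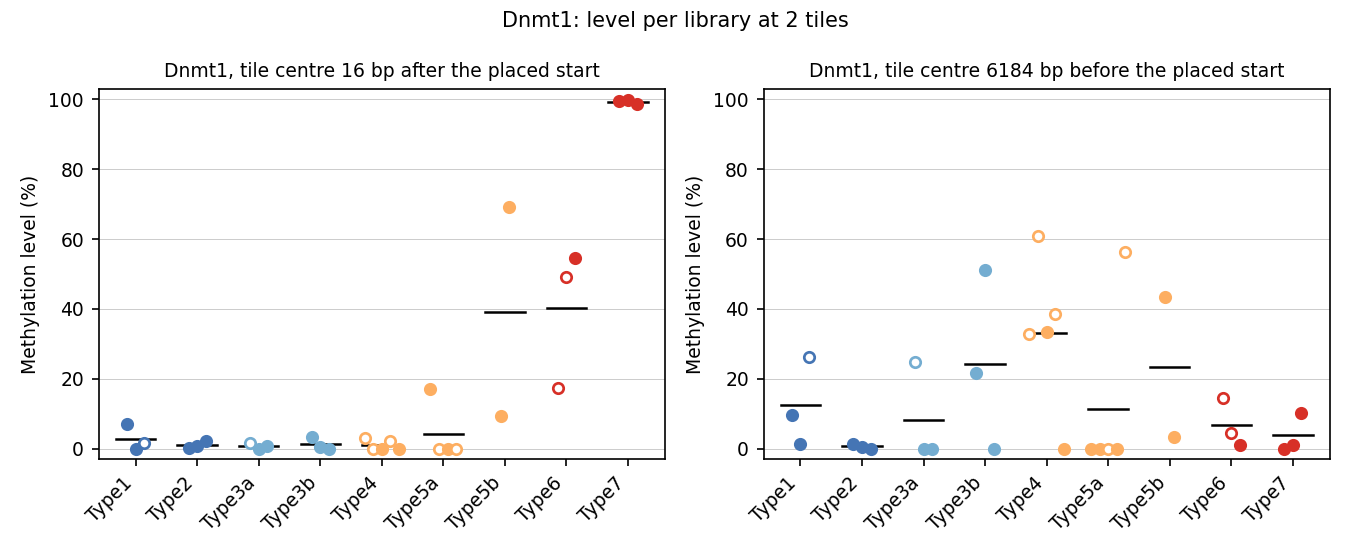
Methylation level (%) of each library (points) and stage mean (bars) in the Dnmt1 tile over the placed start (left) and in the tile 6184 bp before it (right), over the 9 stages; open points are the 9 libraries of X measure above 0. Over the start, Type7 libraries lie at 98.6 to 99.9% and libraries up to Type4 below 7%; upstream, Type7 libraries lie at 0 to 10.3% and the libraries of Type3b to Type5b are scattered.

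Downstream, the Dnmt1 tiles measured in Type7 had means of 88.8% or more, several of them from 1 library. In primary follicles some of these tiles were at 0% (chr9:20735601-20735700 in the 2 Type3a and the 2 Type3b libraries measured), while others varied between libraries. The tile chr9:20728701-20728800, 28.3 kb after the start, had 6.78, 0 and 0% in Type2, 6.18, 100 and 58% in Type3b, 68.9, 20.7 and 39.4% in Type5b and 72.6, 93.8 and 100% in Type7. It was called higher in Type7 than in Type1, over libraries with 3 sites, at 83.2% ± 15 (SD, n = 2) against 8.46% ± 11.3 (n = 3), a difference of 74.8 points (quasi-binomial F test, adjusted p = 0.0152). The call was lost without Type1 replicate 1 (adjusted p = 0.0504, 71.3 points) and in a fit on the libraries of the 2 stages (0.0992, 74.8 points). In chr9:20716401-20716500, 40.6 kb after the start, all 5 primordial libraries lay at 0.581% or below, and Type3a had 90.3, 0 and 23%. The only Type7 library measured there had 100%, and antral exceeded primordial oocytes by 85.1 points (n = 3 against 5, quasi-binomial F test, adjusted p = 0.00322).

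Dnmt3a was low in Type7 near both of its placed starts, while most tiles measured between and beyond them were high. An exception between the starts was chr12:3815201-3815300, with 42.9% in the 1 Type7 library measured. Next to the internal start, chr12:3891801-3891900 had 0 and 13.4% in the 2 Type1 libraries measured, 12.9, 2.13 and 31.4% in Type5b, 36.4, 40.5 and 0% in Type6 and 0% in both Type7 libraries. Those Type7 values rest on 137 and 20 reads summed over sites, which allow up to 2.19 and 15% if the counts are taken as independent. The 2 higher Type6 libraries are replicates 1 and 2, whose X measures were 1.04 and 1.31 points against -4.02 for replicate 3; the part of this in the level was not tested. The next tile, chr12:3891901-3892000, stayed at 0 to 20.3% before Type7 and had 0% in both Type7 libraries. Neither was called in any stage contrast. For the first of the 2 tiles, Type7 minus Type6 was -25.6 points (n = 2 against 3, quasi-binomial F test, adjusted p = 0.0829). At the first start, chr12:3808101-3808200 (990 bp downstream, 7 or 8 sites) had 0 to 14.3% in 17 libraries. In the 1 Type7 library measured, 0 of 96 reads summed over these sites were methylated. The upper limit of 3.12% takes the counts as independent, and the limit is higher where 1 read spans several sites.

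On either side of the internal start the levels went up. The tile chr12:3883701-3883800, 7994 bp before the internal start, had 0, 6.25 and 6.25% in Type1, 51.2 and 41.2% in the 2 Type5b libraries measured, 63.8, 91.6 and 83.4% in Type6 and 100% in all 3 Type7 libraries. It was higher in Type7 than in Type1 by 95.8 points (n = 3 each, adjusted p = 1.90e-05) and in antral than in primordial oocytes by 84.7 points (6 against 6 libraries without overlap, adjusted p = 1.37e-07), both by quasi-binomial F test. Its Type4 and Type3b libraries were already mixed, at 0 to 54.4% and 8.92 to 75.7%. The tile chr12:3895901-3896000, 4206 bp after the internal start, had 0, 0 and 27.6% in Type1, 0 to 5.26% in Type2, 100, 41.1 and 69.6% in Type5b, 100, 100 and 99.3% in Type6 and 98.7 and 100% in 2 Type7 libraries. Antral exceeded primordial oocytes there by 97.9 points (n = 5 against 4, quasi-binomial F test, adjusted p = 1.62e-05); Type1 replicates 2 and 3, with 2 sites each, fell under the minimum of 3 sites and are not in that test. These tiles flank the pair next to the internal start, in which no Type7 library had a methylated read.

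One Dnmt3a tile stood high in Type1 and at 0% in Type2. In chr12:3907001-3907100 (2 sites, 15.3 kb after the internal start), Type1 replicates 1 and 3 had 100 and 87.5% from 19 and 24 reads, and all 3 Type2 libraries had 0% from 94, 76 and 18 reads. Type6 and Type7 had 100% in each of the 5 libraries measured. With a minimum of 1 site per tile it was the single member tile called between Type1 and Type2; at the main minimum of 3 sites it was not tested. Its mean over primordial libraries, 37.5% (n = 5), was the highest of the Dnmt3a tiles measured in at least 2 of them.

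Dnmt3b gained methylation just downstream of its start and was high there by Type5b. Over the stretch 101 to 800 bp after the placed start, the mean level was 6.10% ± 7.10 (n = 2) in Type1, 4.67% ± 6.66 (n = 3) in Type4, 22.1% ± 34.2 (n = 3) in Type5a, 88.6% ± 12.7 (n = 2) in Type5b, 79.7% ± 16.5 (n = 2) in Type6 and 98.8% ± 2.14 (n = 3) in Type7, with the SD between libraries. In the tile chr2:153475701-153475800, 566 bp after the start, each of the 10 libraries from Type1 to Type3b had no methylated read. Type4 had 0, 4.42 and 61.1% and Type5a 91.8, 0 and 2.50%, so 1 Type5a library stood far above the rest. The Type4 levels above 0 came from 1 CpG, at 153475768, with a mean of 46.2% in 2 libraries. The tile's other CpGs had 0% in the 2 Type4 libraries measured there, and the library at 61.1% was not read at them. Both Type5b libraries had 100%, 1 of them from the CpG at 153475768 alone. Type6 had 92.6 and 60.2% and all 3 Type7 libraries had 100%.
Type5a replicate 1 was high across neighbouring tiles, at 54.6% in chr2:153475501-153475600 and 54.4% in chr2:153475601-153475700, where replicates 5 and 7 had 0 to 5.95%. Type6 replicate 3 was likewise lower than replicate 1 in all 3 tiles, at 62.2, 60.8 and 60.2% against 93.6, 94 and 92.6%. The same library, Type5a replicate 1, had the only non-zero level of its stage over the Dnmt1 start. There its methylated reads fell only on the CpGs at 20757007, 20757009 and 20757026.

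From Type1 to Type7 the 3 tiles rose by 100, 85.7 and 100 points in order along the chromosome (quasi-binomial F test, adjusted p = 0.00569, 0.0166 and 0.00491, with 2 Type1 and 2 or 3 Type7 libraries). The second lost its call without Type7 replicate 1 (adjusted p = 0.0885) or replicate 2 (0.0672), at the same difference. The next tile, chr2:153475801-153475900, was called between Type5a and Type5b, at 94.2% ± 8.13 (SD, n = 2) against 5.65% ± 7.98 (n = 2), a difference of 88.6 points (quasi-binomial F test, adjusted p = 0.00262). Its 2 Type5a libraries had 0 and 11.3% and its 2 Type5b libraries 88.5 and 100%; replicate 1 of Type5a was not measured there. The call was lost in a fit on the libraries of the 2 stages (adjusted p = 0.156) and kept in limma. Far downstream, chr2:153499901-153500000 (24.8 kb after the start, 2 sites) had the highest primordial mean among the tiles of the locus measured in at least 2 primordial libraries, 19.1% (n = 5, 3.03 to 41.5%), and 100% in all 3 Type7 libraries.

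Dnmt3l was measured in every stage only at its 2 neighbouring tiles around chr10:77520001, with 1 library in Type3a, and the level there was 100% in Type7. Its other tiles measured in Type7 were lower: chr10:77502701-77502800 had 0% in both Type7 libraries measured, and 5 tiles between 77505201 and 77506400 had 15.8, 0, 0, 10.2 and 31.9% in 1 library. The tile chr10:77520001-77520100 had 1.90 and 44.7% in Type1, 0, 6.45 and 17% in Type2, 1.47% in the 1 Type3a library and 0% in both Type3b libraries. Type4 had 25.9, 56.4 and 34.7%, and the 5 Type5a libraries ran from 11.4 to 57.8% with a median of 31%. Type5b had 91, 100 and 50%, Type6 85.4, 100 and 100% and Type7 100% in 3 libraries. This tile thus stood at intermediate levels in secondary follicles before it filled, and Type5b overlapped Type5a. Among all secondary follicle libraries, X measures were above 0 in Type4 replicates 1, 2 and 5 and Type5a replicates 5 and 7. The part of this in the intermediate levels was not tested.
The tile was called higher in Type5b than in Type5a (80.3% ± 26.7 (SD, n = 3) against 32.9% ± 16.9 (n = 5), a difference of 47.5 points (quasi-binomial F test, adjusted p = 0.0246)). That call was lost in limma (0.160), in a fit on the 2 stages (0.159), with a minimum of 10 reads (0.0507) or at most 10 reads per site (0.0664), and without Type5a replicate 4 (0.0514), Type5a replicate 5 (0.0855) or Type5b replicate 1 (0.404). From Type1 to Type7 it rose by 76.7 points (n = 2 each, quasi-binomial F test, adjusted p = 0.000819), a call lost in a fit on the 2 stages (0.166). Antral exceeded primordial oocytes by 83.1 points in 5 against 5 libraries without overlap (quasi-binomial F test, adjusted p = 9.45e-05). The neighbour chr10:77520101-77520200 (1 or 2 sites) ran in parallel, with 44.4, 80, 74.1 and 36.1% in Type4 and 100% in each of the 6 antral libraries. Type1 replicate 3, with 44.7 and 35.5% in the 2 tiles against 1.90 and 0% in replicate 1, had an X measure of 1.09 against -1.19 points, and the part of this was not tested.

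**Figure D4:**
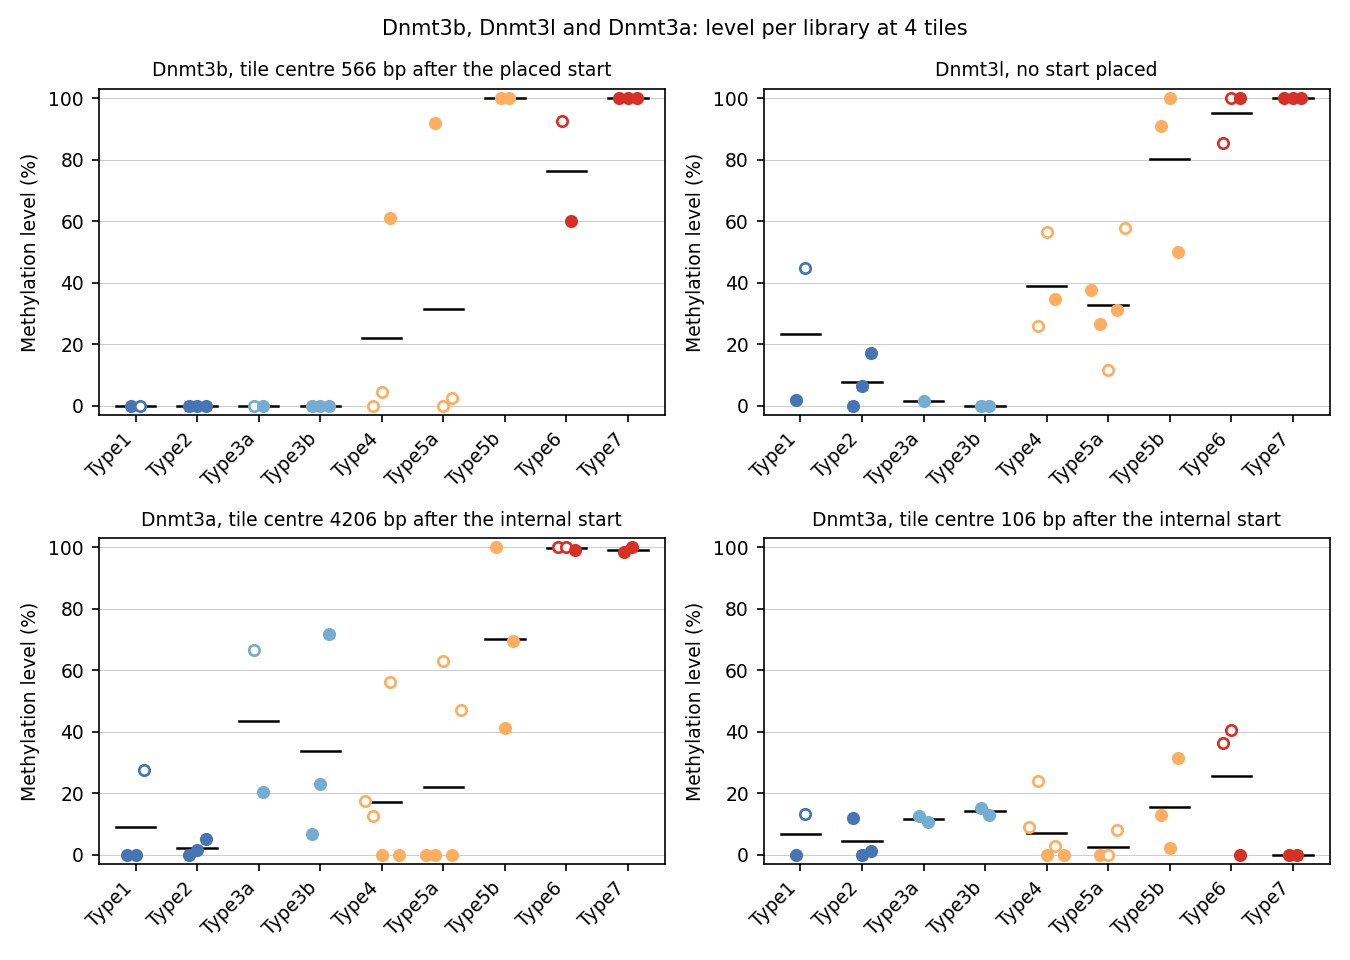
Methylation level (%) of each library (points) and stage mean (bars) over the 9 stages in 4 tiles: Dnmt3b 566 bp after its start, the Dnmt3l tile that was called higher, Dnmt3a 4206 bp after its internal start and Dnmt3a 106 bp after it; open points are the libraries of X measure above 0. The first 3 reach 98.7 to 100% in Type7, while the last has 0% in both Type7 libraries and 36.4 and 40.5% in 2 of the 3 Type6 libraries.

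Between neighbouring stages the loci gave few calls. Between Type5a and Type5b, 2 of 10 member tiles were called higher and none lower (4.90% of the genome's tiles called higher), and the count ran from 0 to 3 when single libraries were left out: 0 without Type5a replicate 5 or Type5b replicate 1, and 1 without Type5a replicates 4 or 7 or Type5b replicate 2. The 5 earlier steps and the step from Type5b to Type6 gave 0 calls in the quasi-binomial model and 0 in limma. At an unadjusted p under 0.05 there were 0 of 12 tiles for Type2 against Type1, 1 of 12 for Type3a against Type2, 0 of 12 for Type3b against Type3a, 1 of 14 for Type4 against Type3b, 3 of 19 for Type5a against Type4 and 1 of 8 for Type6 against Type5b. The share of the genome's tiles called in either direction in these steps was 0.0748, 0.0369, 0.00970, 0.161, 0.198 and 2.93%, so up to Type5a the members' 0 calls are near the background. Leaving out Type5a replicate 7 gave 1 call of 13 for Type5a against Type4.

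Averaged over the tiles that every stage measured in at least 2 libraries, the level of Dnmt1 (5 tiles) was 6.38% ± 6.99 in Type1, 44.5% ± 30.8 in Type5b and 78.3% ± 3.68 in Type7 (SD, n = 3). Dnmt3a (6 tiles) had 4.37% ± 5.85, 40.8% ± 13.4 and 75.2% ± 20.8. Each library was averaged over those of the tiles that it measured. In Type7, the Dnmt3a tiles next to the internal start were measured in 2 libraries, and library averages ran from 60 to 98.95%. The SD of 20.8 therefore comes mainly from which tiles a library measured. Within each of these tiles the Type7 SD was at most 1.65 points. Both averages mix tiles that were high in Type7 with tiles that were low. Dnmt3b had 1 such tile, the one 566 bp after the start, and Dnmt3l none.

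The start of Dnmt1 was set beside other promoters that could be placed by at least 8 sites. The level of a promoter rests on those sites of its 300 bases that had at least 5 reads, which for Dnmt1 were 10 CpGs around the start. Its mean level was 3.60% ± 4.77 (n = 3) in Type1, 38% ± 50.4 (n = 2) in Type5b, 42.6% ± 21.2 (n = 3) in Type6 and 99.8% ± 0.282 (n = 3) in Type7, with the SD between libraries. Of 2917 genes whose placed promoter was measured in both Type1 and Type7, 65 (2.23%), Dnmt1 among them, lay below 10% in Type1 and at 80% or more in Type7. In Type7, 2718 (93.2%) lay below 10%. Of 64 promoters at 80% or more in Type7 that were also measured in Type6, 17 were still below 50% in Type6, again with Dnmt1. In the stretch 101 to 800 bp after placed starts, 60 of 2568 genes (2.34%) went from below 10% to 80% or more; the stretch of Dnmt3b did so too, though it was placed by the looser rule.

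Other genes of the methylation machinery that could be read had levels of 0 to 21.5% at their starts in Type7, where 93.2% of all measured promoters lay below 10%. Of 25 genes in the list, 19 were in the promoter table by symbol and 12 were placed; 6 of these were tested from Type1 to Type7, with 9 tiles, and none was called in either direction by the quasi-binomial model (1 of the 9 had an unadjusted p under 0.05), where 17.7% of the genome's tiles were called higher. None was called between antral and primordial oocytes either (18 tiles of 9 promoters, 4 with an unadjusted p under 0.05; 24.8% of the genome's tiles were called higher). Uhrf1, the partner that brings Dnmt1 to replicating DNA, had 1.51% ± 2.54 (n = 3) in Type7, and its relative Uhrf2 0% ± 0 (n = 3). Trdmt1, an RNA methyltransferase once named Dnmt2, had 1.05% ± 0.932 (n = 3), and Usp7, a deubiquitinase that binds Dnmt1, 9.55% ± 13.5 (n = 2). Tet2, which oxidises methylcytosine, had the highest of these, 21.5% ± 11.5 (n = 2) against 2.37% ± 4.11 (n = 3) in Type1, and was not called (quasi-binomial F test, adjusted p = 0.162). Between antral and primordial oocytes the Tet2 tile differed by 18.6 points (19.8%, n = 5, against 1.19%, n = 6, quasi-binomial F test, adjusted p = 0.00350), past the p threshold but under the 20 points a call needed. The start of the histone methyltransferase gene Ehmt2 had 0% in Type7, and the stretch 101 to 800 bp after it 11.7% ± 1.26 (n = 3).

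**Figure D5:**
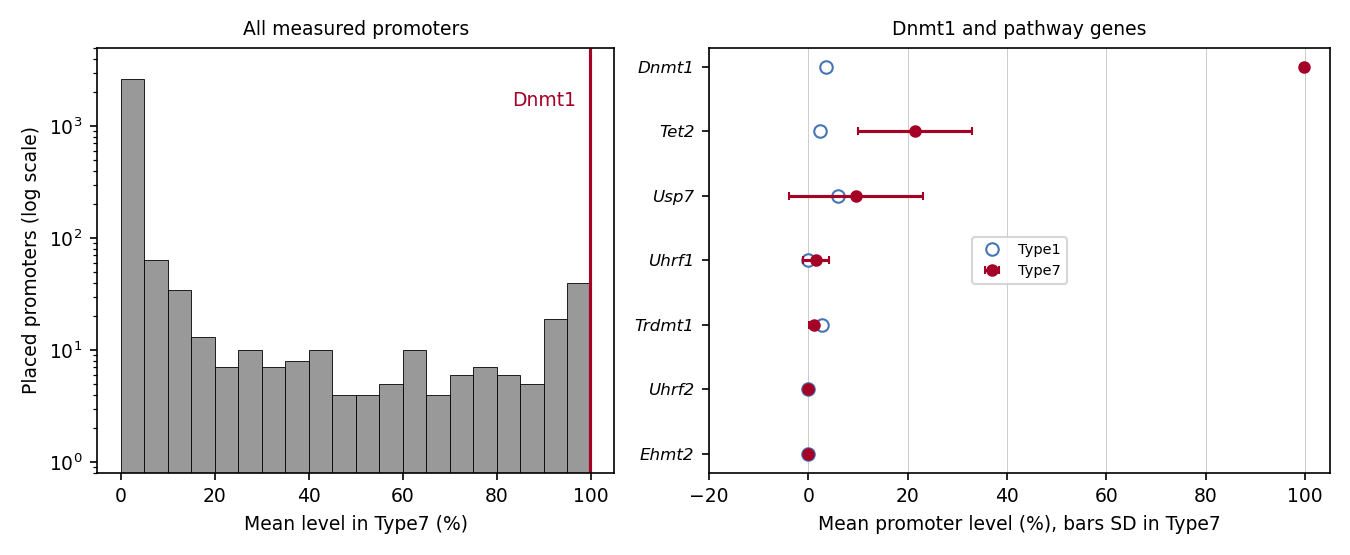
Left, number of placed promoters (log scale) by mean methylation level in Type7 (%), for 2917 genes measured in Type1 and Type7, with Dnmt1 marked by a line. Right, mean promoter level (%) in Type1 (open) and Type7 (filled, bars are the SD between libraries) of Dnmt1 and the 6 pathway genes measured in both; Dnmt1 lies at 99.8% in Type7 and the others at 0 to 21.5%.

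For Dnmt1, Dnmt3a and Dnmt3b, the 1-kb window with the largest rise was compared with 29486 windows elsewhere by the root mean square distance of the 9 stage means. These windows left out 1 autosome, so likeness was not sought over the whole genome. The window over the Dnmt1 start was most like chr19:55818001-55819000 (distance 2.30 points), which had 37.1% in Type5b, 44.2% in Type6 and 96.1% in Type7, and chr9:21597001-21598000 (2.57). The Dnmt3b window was most like chr2:131335001-131336000 (1.85) and chr7:35432001-35433000 (1.97), which stood at 86.4% each in Type5b. The window at chr12:3883001-3884000 in Dnmt3a was most like chr10:66541001-66542000 (2.96) and chr11:116682001-116683000 (3.49). Genes in those windows were not placed here, and the likeness is a description over 9 stage means. No window of Dnmt3l was measured in all stages, so it was not compared.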

How the data were processed

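Oocyte DNA was lysed, cut with MspI, ligated to premethylated adaptors, bisulfite converted, amplified and size-selected, per the labels' protocols. The submitters' processing notes name BSMAP 2.89 and the mm9 build; the methylation caller, trimming and conversion rate are not given there. Per CpG site the authors deposited the count of all reads, the count of methylated reads, the same counts for each strand, and the methylated fraction, as the file headers and values show; no listed site has fewer than 3 reads. Where the strains differ by C and T, the T counts as unmethylated.

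Levels were recomputed from the counts over sites of at least 5 reads in fixed 100-bp tiles. Tiles of at least 3 sites were tested over all 31 libraries with a quasi-binomial model (stage, or follicle class, as factor), a dispersion of at least 1 moderated by the squeezeVar method of limma, with an F test for 10 contrasts and Benjamini-Hochberg adjustment over the genome. Promoters were placed on listed sites as described above. The test was run on simulated reads, where it found unchanged tiles below an unadjusted p of 0.05 somewhat more often than nominal. The members and lists were chosen with earlier results of these data known. Tiles named are up to 5 per locus with the largest called difference from Type1 to Type7, up to 3 of each other contrast, the tile highest in primordial libraries and those at placed starts; the tiles neighbouring these, and those below the site minimum, were chosen after their values were seen. No 2 libraries of 1 stage (41 pairs) shared identical counts at more than 1.01% of sites. Same-numbered libraries of different stages did not deviate together (84 pairs, median r = 0.00602, 6 above 0.1), so numbers were not used as pairs. Software was limma 3.58.1 in R 4.3.3, and pandas 2.3.3, scipy 1.17.1 and numpy 2.4.6 in Python 3.11.15.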

Additional observations from a re-analysis of the deposited data

Results flagged for a closer look

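In groups of 4 or 5 libraries, 4 of 32 checked had a library far from the others. In each of the 4, all other libraries had 0%. The check flags such a group however small the remaining value is, so the count cannot be set against a chance rate. Over the Dnmt1 start, Type5a replicate 1 had 17.0% while the other libraries of the stage measured there had 0%. Its methylated reads fell only on the CpGs at 20757007, 20757009 and 20757026. In the tile 6184 bp before that start, Type5a replicate 7 had 56.3% while the other 4 libraries had 0%; its X measure was 3.23 points. In the single-site tile beside it, 6284 bp before the start, the same library had 76.9%, 10 of 13 reads, while the other 4 had 0% from 7 to 93 reads. In the tile 116 bp after the start, Type4 replicate 1 had 0.917%, 1 methylated read of 109, while the other 4 libraries had 0%.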

How the results depend on the processing

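From Type1 to Type7 the 7 calls became 16 with a minimum of 1 site per tile and 3 when the 9 libraries with an X measure above 0 were dropped, a setting chosen after seeing the data, and 2 to 7 when single libraries were left out. Between antral and primordial oocytes the 10 calls became 26 with 1 site per tile. Between Type5a and Type5b the 2 calls became 6 with 1 site per tile, 1 in limma, 1 when those 9 libraries were dropped, 0 with a minimum of 10 reads, 0 in a fit on the contrast's libraries and 0 to 3 with single libraries left out. The call between Type6 and Type7 became 0 in limma and in a fit on the contrast's libraries, and 0 to 1 with single libraries left out. Type2 against Type1 gave 1 call with 1 site per tile, and Type5a against Type4 gave 0 to 1 with single libraries left out. With the replicate number as a block in limma there were 0 calls between Type5a and Type5b and 0 between Type6 and Type7; the numbers do not pair the libraries, and the block moved no other count by over 1.5 times. The rise of the Dnmt1 level from Type1 to Type7, 71.9 points, was 48.1 with a minimum of 10 reads, 51.0 with 3 sites per tile and 64.5 with pooled reads. That of Dnmt3a, 70.8 points, was 94.8 with a minimum of 10 reads and 56.4 to 98.8 with single libraries left out, as the tiles measured in every stage change. That of Dnmt3b, 100 points over 1 tile, was 90.1 over every tile measured. No result reversed. When those 9 are dropped, Type6 has 1 library and its contrasts were not tested. Libraries of few reads over the loci limit which tiles can be compared: 27 to 138 member sites had 5 reads per library.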
